A study of Zea mays with 24 samples.

Results

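The comparison described here set 35°C against 31°C MDT (maximum daily temperature) in leaves of maize (Zea mays) at developmental stage V4, and asked which alternative splicing (AS) events changed in their isoform balance. It used 6 of the 24 poly(A) RNA libraries of the study, 3 from plants grown at 35°C MDT and 3 from plants grown at 31°C MDT, the temperature the study took as normal. All plants were of the inbred line W22 and had been germinated at a common temperature and then moved as seedlings to chambers in which the air was warmed each day to the MDT and cooled to well below it at night. RNA came from the blade of the first fully expanded leaf, without the midrib, at 20 days after germination (DAG), taken when the MDT was reached. The study also sampled 33°C and 37°C MDT at V4 and all 4 MDTs at stage V5 (27 DAG), and those libraries are used below only to place the 35°C/31°C MDT differences. Of 22077 AS events listed at V4, 6420 in 3509 genes could be tested, which means that at least 2 libraries of each MDT had a value and that the mean per library was 10 reads or more. On the first condition 6821 events were kept, and 401 of these fell short on the second, the tested event with the fewest reads having a mean of 10.0 and the best-read event left out a mean of 9.83.

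In splicing, introns are removed from the primary transcript and exons are joined. AS arises when a splice site is used in some transcripts and not in others, so that one gene gives several RNA isoforms. In intron retention (IR) an intron stays in the mature RNA, in exon skipping (ES) an exon is left out, alternative 5′ and 3′ splice sites (A5SS and A3SS) lengthen or shorten an exon at its donor or acceptor side, and in mutually exclusive exons (MXE) one exon or another is used. In plants IR is a frequent form of AS, and serine/arginine-rich (SR) proteins and other RNA-binding proteins influence which splice sites are chosen. Many SR protein transcripts are themselves alternatively spliced, and in Arabidopsis their isoforms are known to shift with temperature.

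For each event and library the values are the inclusion reads, the skipping reads and ψ, the share of inclusion after both read numbers are divided by the effective length of their isoform. ψ is given below in percent and its differences in percentage points, always 35°C minus 31°C. Inclusion means a retained intron in IR, a kept exon in ES, the longer exon in A5SS and A3SS, and the first of the exons in the direction of transcription in MXE. A value exists only where a library had at least 1 read of each isoform, and otherwise the event is missing there and is not at 0. Reads summed over all events ranged from 2414853 to 2533748 in the 35°C libraries and from 1782669 to 2286472 in the 31°C libraries, and tested events had a median of 64 to 65 reads per library at 35°C and of 56 to 61 at 31°C. Because leaf blade holds several cell types, a change within cells and a change in which cells contributed RNA cannot be told apart.

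At 35°C/31°C MDT, 53 events in 48 genes, or 0.826% of those tested, were differentially spliced (DAS). Inclusion was lower at 35°C in 39 of them (0.607%) and higher in 14 (0.218%). A DAS event had a false discovery rate (FDR) of at most 0.01 in a quasi-binomial test of the reads and a difference of mean ψ above 5 points. The median difference of the DAS events was −10.9 points and their median absolute difference 14.6 points, beside −0.20 and 3.43 points over all tested events. In all 53 events the values at 35°C lay outside the range of the values at 31°C, which was true of 23.0% of all tested events. An unadjusted p under 0.05 was reached by 927 events (14.4%).

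The DAS call depended on single libraries and on the test. Without 35°C replicate 3 there were 24 DAS events and without 31°C replicate 1 there were 29, and 21 events were called whichever library was left out. By direction, 9 higher events were left without 31°C replicate 1 and 9 and 8 without 35°C replicates 2 and 3, and 20 and 16 lower events without 31°C replicate 1 and 35°C replicate 3. The quasi-likelihood test of edgeR called 52 events, 42 of which were among the 53, whereas limma on log2 ratios of the reads or on logit ψ called 0, with 809 and 808 events at an unadjusted p under 0.05. DAS events were also deeper than the rest, with a median of 256.5 reads per library beside 60.7 over all tested events.

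**Figure D1:**
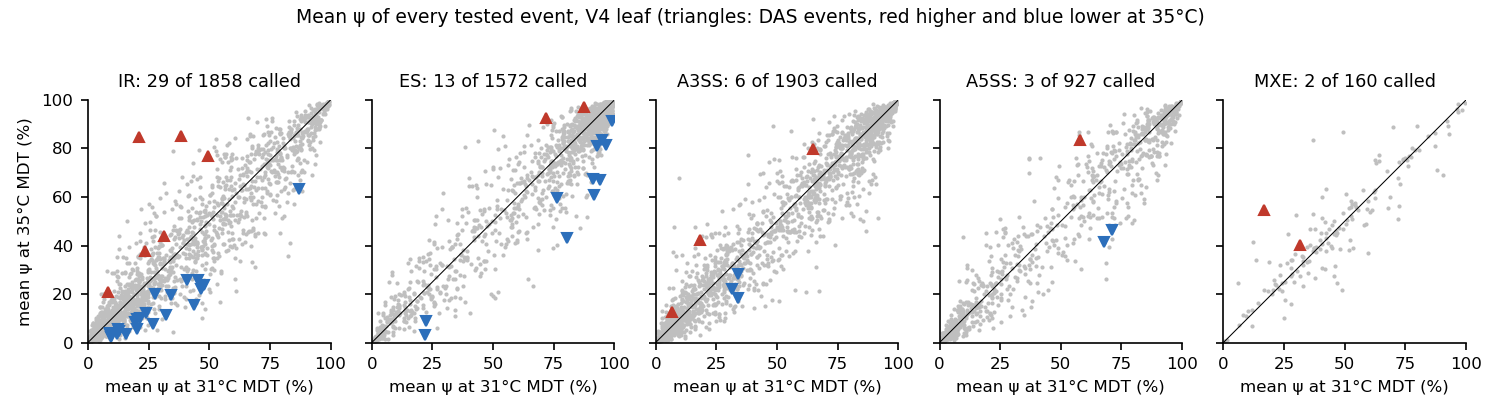
Mean ψ at 35°C (vertical axis, percent) against mean ψ at 31°C MDT (horizontal axis, percent) for the tested events of each AS type, with DAS events coloured by direction. The 39 lower and 14 higher DAS events stand off the diagonal, along which most of the 6420 tested events lie.

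The levels over all events moved little. Mean ψ of the 1431 IR events with a value in all 6 libraries was 31.4% ± 0.113 (SD, n = 3) at 35°C and 32.2% ± 0.231 at 31°C. Mean ψ of the corresponding 899 ES events was 65.2% ± 0.278 at 35°C and 66.5% ± 0.223 at 31°C. The libraries of the groups did not overlap in either measure, and the exact two-sided permutation test gave p = 0.1 for each, the smallest value that 3 against 3 libraries allow. With at least 2 reads of each isoform required, the IR difference went to −0.509 points in place of −0.841. The 35°C libraries held 9880, 10163 and 10043 AS events, against 9540, 9083 and 9363 in the 31°C libraries (exact permutation p = 0.1). They also held more reads, as given above, and the part of depth in this difference was not tested.

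IR was the most frequent type of DAS. Of 1858 IR events tested, 29 (1.56%) were DAS events, 23 (1.24%) with less retention at 35°C and 6 (0.323%) with more. The 23 introns that were retained less had a median ψ of 9.80% at 35°C and 21.5% at 31°C. Without 35°C replicates 2 and 3 the IR count fell to 16 and 9, and without 31°C replicates 1 and 2 to 17 and 19.

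The smallest FDR among all IR events belonged to an intron of Zm00001d040979 (chr3:87676068-87676587, 520 bases, all positions in B73 RefGen_V4). Its ψ was 3.2, 3.5 and 3.8% in the 35°C libraries, against 15.2, 15.1 and 17.1% in the 31°C libraries. Retention was thus low at 35°C in every library, and the difference of −12.3 points (FDR = 1.82e-09) was called whichever library was left out. The intron of Zm00001d042494 at chr3:169455333-169456117 was retained at 12.3, 10.6 and 11.5% at 35°C, against 34.6, 29.6 and 32.4% at 31°C (−20.7 points, FDR = 0.000293). In Zm00001d041491 (chr3:123760908-123761539) ψ was 8.1, 9.8 and 4.8% at 35°C, against 25.2, 26.9 and 28.3% at 31°C (−19.2 points, FDR = 0.00091). Both introns showed groups that lay far apart relative to their spread, and both calls also held without any single library.

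Among the DAS introns the largest fall in retention was in Zm00001d021135, one of 3 genes for phosphatidylethanolamine-binding (PE-binding) proteins that the study names and describes as homologs of FLOWERING LOCUS T, the Arabidopsis protein that promotes flowering. Its 1611-base intron at chr7:143621435-143623045 had a ψ of 17.8, 17.5 and 11.0% at 35°C, against 50.8, 46.4 and 34.1% at 31°C (−28.3 points, FDR = 0.00467). The 31°C libraries were spread widely but did not reach the 35°C values, and the call was lost without 31°C replicate 1 or 35°C replicate 3. This event had 69.0 reads per library at 35°C and 307.7 at 31°C, numbers that also fall when a long intron is retained less. Divided by effective length and scaled between libraries, the reads of both isoforms differed by −1.21 in log2, 35°C minus 31°C. Of the 8 tested events of Zm00001d021135 1 was called and 6 had an unadjusted p under 0.05, beside 0.826% and 14.4% of all tested events. The A5SS event of this gene at chr7:143620370-143621393 was next, with 27.0, 26.4 and 19.8% at 35°C, against 39.9, 40.5 and 39.9% at 31°C (−15.7 points, FDR = 0.0258), which did not pass.

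Other introns with less retention at 35°C were those of Zm00001d053446 (−24.7 points, FDR = 0.00898), Zm00001d011168 (−24.2 points, FDR = 0.00284) and Zm00001d027415 (−23.7 points, FDR = 0.00705). The intron of Zm00001d011168 at chr8:141592738-141594265 spanned 1528 bases and was retained at 23.4, 26.1 and 21.8% at 35°C, against 49.8, 46.7 and 47.4% at 31°C. Its call was lost without 31°C replicate 1 or 35°C replicate 3. That of Zm00001d053446 (25, 17.6 and 23.5% at 35°C, against 48.5, 45.3 and 46.5% at 31°C) was lost without each of the 6 libraries in turn, although the groups did not overlap. In Zm00001d027415 most transcripts kept the intron in both groups, with 60.9, 62.3 and 66.2% at 35°C, against 80.1, 89.2 and 91.3% at 31°C, and when single libraries were left out its call held only without 31°C replicate 1. The 79-base intron of Zm00001d044704 was the shortest DAS intron, with 24.1, 30.6 and 22.5% at 35°C, against 43.8, 44.7 and 47.2% at 31°C (−19.5 points, FDR = 0.009), and its call held only without 35°C replicate 2.

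Smaller differences were called in deeply read or tightly spread introns. An intron of Zm00001d016679 (chr5:172379921-172380879) had a ψ of 20.0, 21.1 and 19.1% at 35°C, against 27.2, 27.4 and 27.7% at 31°C (−7.37 points, FDR = 0.00091), from 1189 reads per library at 35°C and 1001 at 31°C. In Zm00001d050043, whose best Arabidopsis match is BBD1, a nuclease of the basal defense response, retention was 3.5, 3.0 and 3.3% at 35°C, against 13.3, 6.2 and 8.8% at 31°C (−6.17 points). This event was chosen here after its values were seen, because its match is annotated. Its 31°C libraries differed among themselves by more than the whole 35°C group did, and the call was lost without 31°C replicate 1 or 35°C replicate 3.

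Retention was higher at 35°C in 6 introns. The largest difference of all tested events, 63.55 points, was in Zm00001d050353 (chr4:83025216-83026205), but it rested on 2 libraries a group, with 85.5 and 83.6% at 35°C, against 16.4 and 25.6% at 31°C (FDR = 0.00856), so that it could not be tested once any of these libraries was left out. It lost its call without 31°C replicate 1 or 35°C replicate 3, which had no value for it, and with adjustment over all types, and each 35°C value included 1 skipping read. In Zm00001d008933 the 281-base intron at chr8:25925798-25926078 was retained at 84.7, 95.6 and 75.1% at 35°C, against 39.6, 39.2 and 36.6% at 31°C (+46.7 points, FDR = 0.00207). By ψ the majority isoform therefore differed between the MDTs in both genes, although few skipping reads lay behind the 35°C values. The Zm00001d008933 event had 60.7 reads per library at 35°C and 76.7 at 31°C, and it was called whichever library was left out. With its high ψ and the longer effective length of the retained form, only a few of its 35°C reads were skipping reads. Its 35°C values thus also lay near the limit below which no value exists.

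The other 4 introns with more retention at 35°C had smaller differences. That of Zm00001d042940 (chr3:184601002-184601161) had a ψ of 79.4, 74.8 and 76.7% at 35°C, against 47.1, 54.7 and 46.2% at 31°C (+27.6 points, FDR = 0.00638), but when single libraries were left out its call held only without 31°C replicate 2. The 200-base intron of Zm00001d052093 (chr4:179377468-179377667) was retained at 35.6, 40.7 and 37.4% at 35°C, against 21.8, 25.4 and 22.9% at 31°C (+14.5 points, FDR = 0.000105). That of Zm00001d018037 (chr5:212582930-212583298) was retained at 43.3, 45.4 and 43.4% at 35°C, against 30.9, 29.4 and 33.3% at 31°C (+12.8 points, FDR = 0.000105). These last calls held without any single library. The intron of Zm00001d003212 was retained at 21.5, 22.6 and 17.9% at 35°C, against 10.2, 4.5 and 10.3% at 31°C (+12.3 points, FDR = 0.00607), and lost its call without 35°C replicate 2 or 35°C replicate 3.

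**Figure D2:**
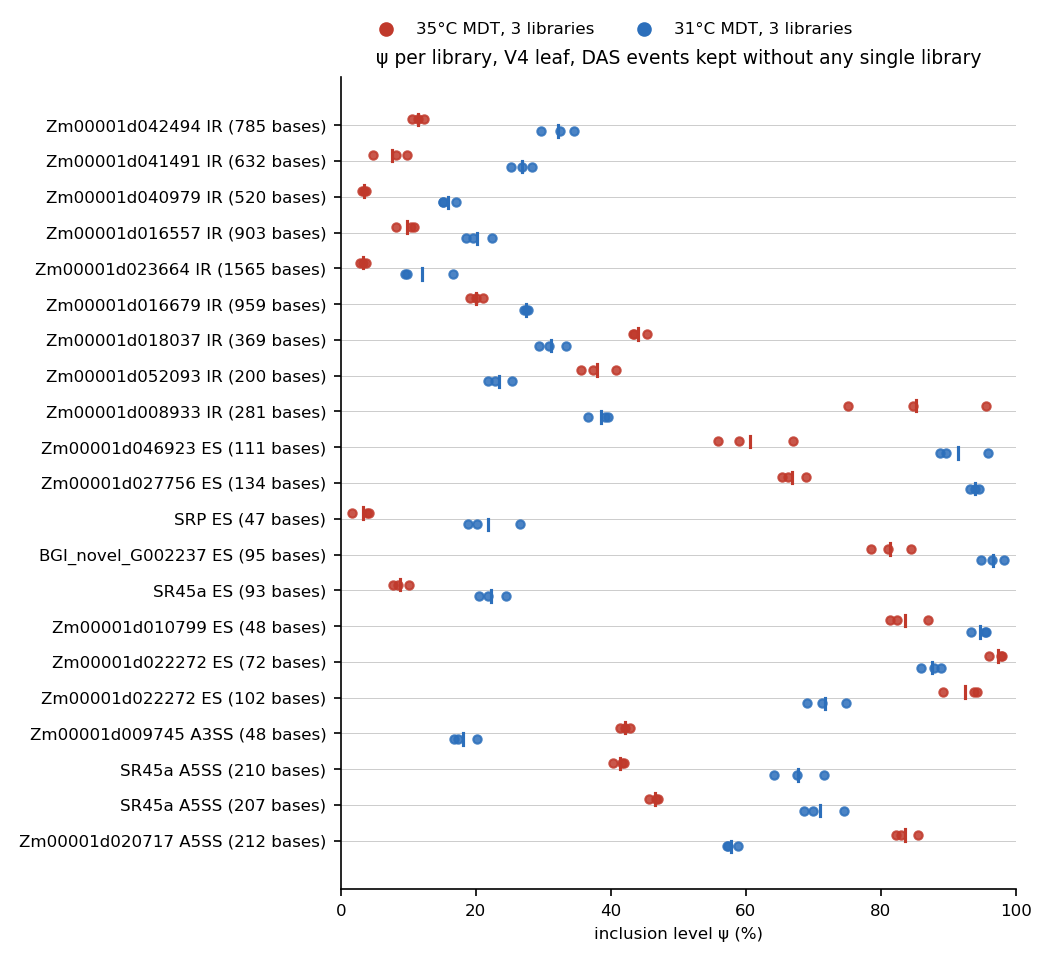
ψ (percent, horizontal axis) in each of the 3 libraries at 35°C MDT and the 3 at 31°C MDT for the 21 DAS events that were called whichever library was left out, 1 event per line. The groups are separate on every line, and 14 of the 21 events lie lower and 7 higher at 35°C.

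Among 1572 ES events, 13 (0.827%) were DAS events, with the exon included less at 35°C in 11 (0.700%) and more in 2 (0.127%). Most of these exons were the majority form at 31°C. The 11 exons that were included less had a median ψ of 66.8% at 35°C and 91.4% at 31°C. Without 31°C replicate 1 or 35°C replicate 3, 8 ES events were called.

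The exon of Zm00001d027756 at chr1:12714974-12715107 (134 bases) had the smallest FDR of this type. It was included at 68.9, 66.2 and 65.4% at 35°C, against 94.5, 94.0 and 93.2% at 31°C (−27.1 points, FDR = 4.31e-07). Libraries of one MDT differed by at most a few points, so that the groups were separated widely. In Zm00001d046923 (chr9:110944786-110944896) inclusion was 67.0, 59.0 and 55.9% at 35°C, against 95.9, 88.7 and 89.6% at 31°C (−30.8 points, FDR = 0.000544). Both calls held without any single library.

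Zm00001d016679 had 3 DAS events of 2 types. Besides the intron described above, it had a pair of overlapping ES events that share the exon end at position 172382853 of chromosome 5 and skip to the same flanking exons. The 46-base exon was included at 37.0, 46.8 and 46.1% at 35°C, against 80.2, 93.6 and 67.5% at 31°C (−37.1 points, FDR = 0.00968). The 1235-base exon, which starts at 172381619, was included at 65.4, 69.5 and 67.1% at 35°C, against 90.0, 97.7 and 85.5% at 31°C (−23.7 points, FDR = 0.00312). Skipping was thus more frequent at 35°C for the short and the long form of the exon, although the events are not independent. Both lost their call without 31°C replicate 1 or 35°C replicate 3, and the short form also without 31°C replicate 2 or 35°C replicate 1.

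SRP (Zm00001d051139), a splicing regulator named by the study whose best Arabidopsis match is an RNA-binding protein of the RRM family, had an exon of 47 bases (chr4:145547764-145547810) that was nearly always skipped at 35°C. Its ψ was 1.7, 3.9 and 4.2% at 35°C, against 26.6, 18.8 and 20.1% at 31°C (−18.6 points, FDR = 0.000101). The reads of inclusion and skipping were 12 and 532, 26 and 491, and 29 and 504 in the 35°C libraries. They were 62 and 130, 40 and 131, and 46 and 139 in the 31°C libraries. Skipping reads were therefore several times more numerous at 35°C, while inclusion reads were fewer in every 35°C library than in any 31°C library. The call held without any single library.

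Zm00001d046112, whose best Arabidopsis match is spermidine synthase 3, an enzyme of polyamine synthesis, included a 45-base exon (chr9:63974012-63974056) at 63.4, 59.1 and 56.3% at 35°C, against 75.9, 79.7 and 73% at 31°C (−16.6 points, FDR = 0.00312). A gene that the authors' annotation calls BGI_novel_G002237 included a 95-base exon at 81.1, 84.5 and 78.6% at 35°C, against 96.5, 98.3 and 94.8% at 31°C (−15.1 points, FDR = 0.000114). The call of Zm00001d046112 was lost without 31°C replicate 1 or 35°C replicate 3, and that of BGI_novel_G002237 was not lost without any library.

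Only Zm00001d022272 included exons more at 35°C among the DAS events of this type. Its 2 events on chromosome 7 share an exon end and differ in the acceptor, so they overlap. The 102-base exon (chr7:174090833-174090934) was included at 89.2, 94.3 and 93.8% at 35°C, against 74.8, 69.0 and 71.2% at 31°C (+20.8 points, FDR = 0.000109). The 72-base exon (chr7:174090863-174090934) was included at 96.0, 98.0 and 97.8% at 35°C, against 88.9, 85.9 and 87.9% at 31°C (+9.70 points, FDR = 0.000101). Both events are measured against the same skipping reads, 37, 20 and 20 in the 35°C libraries and 64, 80 and 76 in the 31°C libraries. Each ψ is a share against skipping alone and leaves out the other form of the exon. Skipping was thus less frequent at 35°C relative to either form, and the 2 events are not independent. Both calls held without any single library.

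Of 927 A5SS events, 3 (0.324%) were DAS events, 2 of them in SR45a (Zm00001d047847), which encodes an SR-like splicing regulator. They used the same proximal donor and had distal donors that lay 207 and 210 bases downstream on chromosome 9. For the first, at chr9:143197907-143198113, the longer exon made up 47.0, 46.7 and 45.7% at 35°C, against 68.6, 70.0 and 74.5% at 31°C (46.5% ± 0.681 at 35°C and 71.0% ± 3.08 at 31°C, SD, n = 3 each). The difference was −24.6 points (FDR = 3.73e-07). For the second (chr9:143197907-143198116) the values were 41.9, 41.7 and 40.3% at 35°C, against 64.2, 67.5 and 71.5% at 31°C, a difference of −26.4 points with the same FDR. At 35°C the short exon was thus about as frequent as the long one, whereas the long one prevailed in every 31°C library.

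An ES event of SR45a was also a DAS event. Its 93-base exon (chr9:143198022-143198114) was included at 10.1, 8.5 and 7.8% at 35°C, against 21.8, 24.4 and 20.5% at 31°C (−13.4 points, FDR = 0.000109). All 3 SR45a events are measured against the same skipping reads, 515, 586 and 586 in the 35°C libraries and 188, 153 and 131 in the 31°C libraries. They are therefore not independent of each other, and the calls held without any single library. The other 5 tested SR45a events, 3 of them A3SS events near position 143197346 and 2 A5SS events that differ by 1 or 3 bases, were not called, and their differences lay between −2.10 and +2.00 points.

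The other A5SS event, the only one of its type with higher inclusion at 35°C (0.108% of those tested, beside 0.216% lower), was in Zm00001d020717 (chr7:129917490-129917701, 212 bases). The longer exon made up 85.5, 83.0 and 82.3% at 35°C, against 58.8, 57.3 and 57.2% at 31°C (+25.8 points, FDR = 6.37e-07). The spread within a group was small beside this difference, and the call held without any single library. The A5SS count itself was 8 when 31°C replicate 2 was dropped and 5 when 31°C replicate 3 was, and edgeR called 6.

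A3SS events were the most numerous type tested, with 1903, and 6 of them (0.315%) were DAS events, 3 higher and 3 lower at 35°C (0.158% each). In Zm00001d009745 the upstream acceptor (48 bases, chr8:79183656-79183703) was used at 41.4, 42.1 and 42.8% at 35°C, against 20.1, 17.4 and 16.7% at 31°C (+24.03 points, FDR = 0.000668). This was the one A3SS call that held whichever library was left out, and without 31°C replicate 1 it was the only one. In Zm00001d048515 a 16-base extension made up 79.4, 76.2 and 83.5% at 35°C, against 65.2, 65.9 and 63.1% at 31°C (+15.0 points, FDR = 0.00228). In Zm00001d050245 a 742-base extension made up 16.9, 21.0 and 17.7% at 35°C, against 31.2, 39.2 and 31.9% at 31°C (−15.6 points, FDR = 0.00295). The acceptors of Zm00001d014324 lay 3 bases apart, and the longer form made up 23.0, 23.0 and 19.6% at 35°C, against 32.6, 29.5 and 31.9% at 31°C (−9.47 points, FDR = 0.00228). These last 3 calls were lost without 31°C replicate 1, and that of Zm00001d050245 also without 35°C replicate 3.

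Of 160 MXE events 2 (1.25%) were DAS events, both with more of the first exon at 35°C. In Zm00001d033850 the exon at chr1:275842095-275842465 made up 39.5, 39.4 and 42.3% at 35°C, against 31.2, 32.3 and 31.1% at 31°C (+8.87 points, FDR = 0.00884). In Zm00001d003277 the exon at chr2:38574360-38574554 made up 46.1, 69.8 and 48.1% at 35°C, against 3.0, 34.8 and 12.5% at 31°C (+37.9 points, FDR = 0.00943). The libraries of Zm00001d003277 were widely spread in both groups. No MXE event was called by the quasi-binomial test once 31°C replicate 1 or one of 35°C replicates 2 and 3 was left out.

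The study names 5 splicing regulators, and it chose them for their AS on these samples, so their counts are not independent of the data. Of their 31 tested events 4 were called, all lower at 35°C and all described above for SR45a and SRP, and 9 had an unadjusted p under 0.05, beside 0.826% called and 14.4% at that p over all tested events. Their median difference was −5.40 points, beside −0.20 over all tested events. For SCL33 (Zm00001d022243), an SR protein, an ES event at chr7:173494317-173494504 had a ψ of 5.3, 4.2 and 3.5% at 35°C, against 9.4, 7.6 and 9.6% at 31°C. Its FDR of 0.00876 passed but its difference of −4.53 points did not. Another SCL33 exon (chr7:173493102-173493206) was at 17.4, 17.5 and 18.6% at 35°C, against 14.0, 7.7 and 5.9% at 31°C (+8.63 points, FDR = 0.0594). The groups did not overlap in either SCL33 event, but neither was a DAS event. None of the 10 events of the SR protein gene SR34 (Zm00001d040672) and none of the 9 of SPFcc1-like (Zm00001d048415) were called by the quasi-binomial test, and 1 and 2 of them had an unadjusted p under 0.05. The SR34 event with the smallest p was an intron at chr3:57182202-57182273, retained at 14.1, 15.9 and 20.0% at 35°C, against 11.5, 5.7 and 12.1% at 31°C (FDR = 0.243).

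Of 10 further genes named by the study, also chosen by it on these samples, 8 had tested events. The intron of Zm00001d021135 was the only DAS event among their 38 events, 13 of which had an unadjusted p under 0.05, beside the same shares of 0.826% and 14.4% over all tested events. CAU1 (Zm00001d004109), a homolog of an Arabidopsis gene needed to silence FLOWERING LOCUS C, had 13 tested events and 0 DAS events in the quasi-binomial test, with 2 at an unadjusted p under 0.05. Its exon at chr2:83270656-83270724 was included at 36.3, 58.8 and 57.8% at 35°C, against 78.3, 64.2 and 85.6% at 31°C (−25.1 points, FDR = 0.143). This exon had 33.0 reads per library at 35°C and 34.0 at 31°C, and its difference did not pass at that depth and spread. HSFTF9 (Zm00001d048041), a heat stress transcription factor, had 1 tested event, an intron retained at 64.8 and 58.0% in the 2 of the 35°C libraries with a value, against 79.3, 73.4 and 72.3% at 31°C (FDR = 0.788). The MAPKKK3 genes, NF-YB1 and the other PE-binding protein genes had no DAS event, and CONSTANS-LIKE9 and NCRK had no event that could be tested. The PE-binding protein gene Zm00001d006116 had 5 tested events with a median difference of −28.97 points. An unadjusted p under 0.05 was reached by 3 of them in the quasi-binomial test, but none passed the thresholds. The 1 tested event of Zm00001d046300 differed by +9.80 points.

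The 3 most deeply read IR events, in which counting error is smallest, changed by at most 0.300 points. The intron of Zm00001d015327 was retained at 73.9, 73.7 and 73.2% at 35°C, against 74.3, 73.9 and 73.2% at 31°C, from 6933 reads per library at 35°C and 4218 at 31°C (FDR = 0.909). The intron of Zm00001d035337 was retained at 0.5, 0.5 and 0.6% at 35°C, against 0.6, 0.5 and 0.6% at 31°C. The groups overlapped in both introns. The third, an intron of Zm00001d021620 (chr7:158179409-158179525), reached an unadjusted p under 0.05 in the quasi-binomial test but was not a DAS event.

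The levels of the DAS events at the other V4 MDTs did not follow 1 pattern. The comparisons with 31°C share the 31°C libraries, so only levels are given for them, from 31°C to 37°C. For Zm00001d040979 mean retention was 15.8, 3.14, 3.50 and 5.43%, so that the low level was already present at 33°C. For Zm00001d042494 it was 32.2, 11.7, 11.5 and 17.7%, with the same early step. The exon of Zm00001d027756 was included at 93.9, 86.7, 66.8 and 62.9%, lower at each higher MDT. Retention in Zm00001d052093 was 23.4, 28.9, 37.9 and 57.8%, higher at each higher MDT. The long SR45a exon (207 bases) stood at 71.0, 57.7, 46.5 and 60.8%, with its lowest mean at 35°C. The A5SS event of Zm00001d020717 stood at 57.8, 85.1, 83.6 and 67.3%, and its 37°C libraries were widely spread (SD 9.74).

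**Figure D3:**
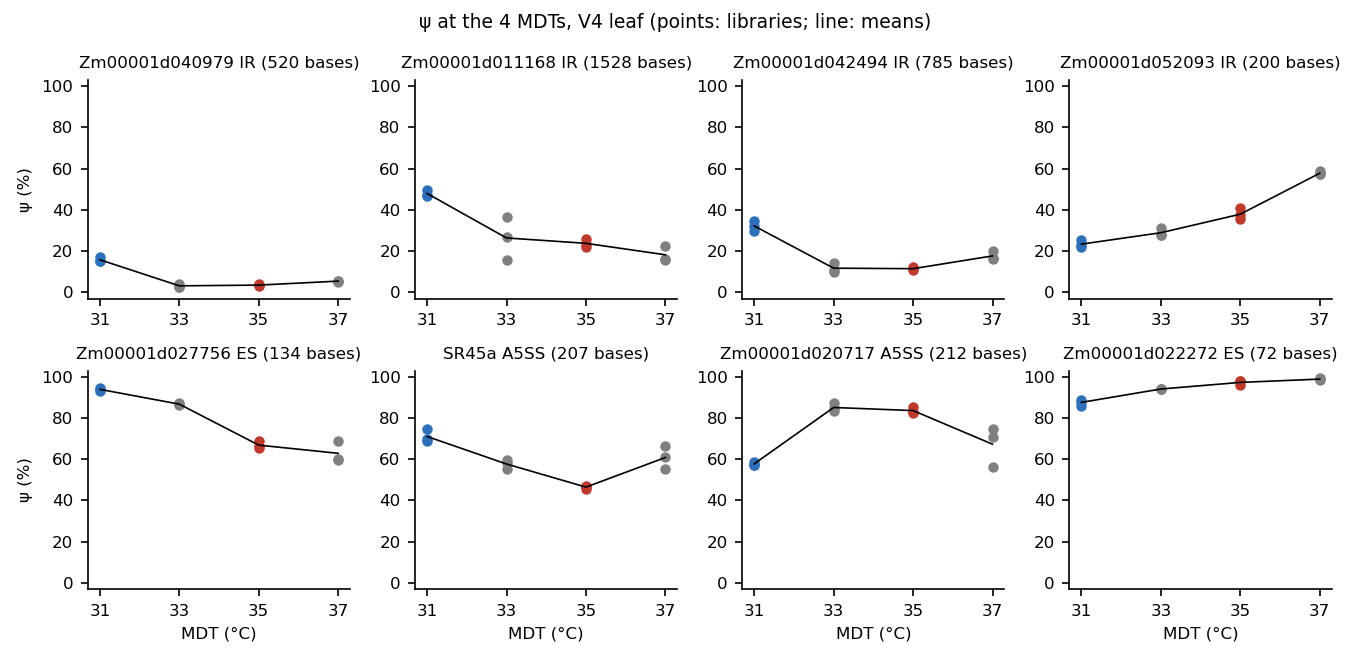
ψ (percent, vertical axis) of 8 DAS events in each V4 library at 31°C, 33°C, 35°C and 37°C MDT (horizontal axis), with points for libraries and a line through the means. Zm00001d027756 falls and Zm00001d052093 climbs at each step, whereas SR45a is lowest at 35°C and Zm00001d040979 is low from 33°C on.

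Set directly against 35°C, the 37°C libraries gave 9 DAS events of 6687 tested (0.135%). Of the 53 events 51 could be tested there and 4 were called. The 2 SR45a A5SS events had higher inclusion at 37°C by 14.4 and 14.8 points (FDR = 0.00855 and 0.00907), the intron of Zm00001d052093 was retained more by 19.9 points (FDR = 4.99e-05), and the first exon of Zm00001d003277 was used less at 37°C than at 35°C. This comparison shares the 35°C libraries with the one described here. Its count was 3 and 4 without 35°C replicates 2 and 3, and 14 and 18 without 37°C replicates 1 and 2.

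The V5 libraries at 35°C and 31°C MDT are separate from those at V4, and 52 of the 53 events could be tested there. The difference had the same direction at V5 in 45 of them (86.5%), beside 58.6% of the 5624 events tested at both stages. DAS calls were also made at V5 for 24 of the 52 (46.2%), beside 2.54% of the 5624 events and 1.87% of the 7842 events tested at V5. All 13 ES events kept their direction and 9 of them were DAS events at V5. All 6 A3SS events kept it too, with 3 DAS events at V5, and 22 of 28 IR events did, with 10 DAS events. Over all events of a type tested at both stages, 60.9% of ES, 58.2% of A3SS and 57.6% of IR events had the same direction. DAS events at V5 made up 2.77%, 0.481% and 5.12% of them. The V4 DAS events were deeper than the rest at V4, as given above, and some of them share reads. The shares over all events are thus not from events of like depth.

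The V5 values of single events ranged from close repeats to reversals. The exon of Zm00001d046112 was included at 60.1% ± 1.76 (SD, n = 3) at 35°C and 78.1% ± 2.88 at 31°C at V5 (−18.0 points), beside −16.6 points at V4. The PE-binding protein intron of Zm00001d021135 was retained at 21.5% ± 1.82 at 35°C and 47.7% ± 5.49 at 31°C at V5 (−26.2 points, FDR = 0.00019). The exon of Zm00001d027756 was included at 22.3% ± 0.458 at 35°C and 82.2% ± 0.252 at 31°C at V5, a larger difference (−59.9 points) than at V4. The stage test gave an FDR of 0.0169 for it, which did not pass.

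The change itself differed between the stages in 40 of the 5624 events (0.711%) by a Wald test of the interaction, with 636 (11.3%) at an unadjusted p under 0.05. Of the 52 V4 DAS events tested, 10 (19.2%) were among them, and the genes named here were chosen after their values were seen. Zm00001d040979 was reversed, with retention of 21.5% ± 1.31 at 35°C and 11.9% ± 1.05 at 31°C at V5 (FDR of the stage difference = 6.43e-17). Zm00001d020717 did not move at V5, with 16.9% ± 0.529 at 35°C and 17.8% ± 1.78 at 31°C, both far below the V4 levels (FDR = 7.43e-10). SR45a moved the same way and further, to 11.4% ± 0.116 at 35°C, against 52.3% ± 0.666 at 31°C at V5 for the 207-base event (FDR = 1.99e-12). The events had been selected by their V4 difference, which enters the stage test as well.

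**Figure D4:**
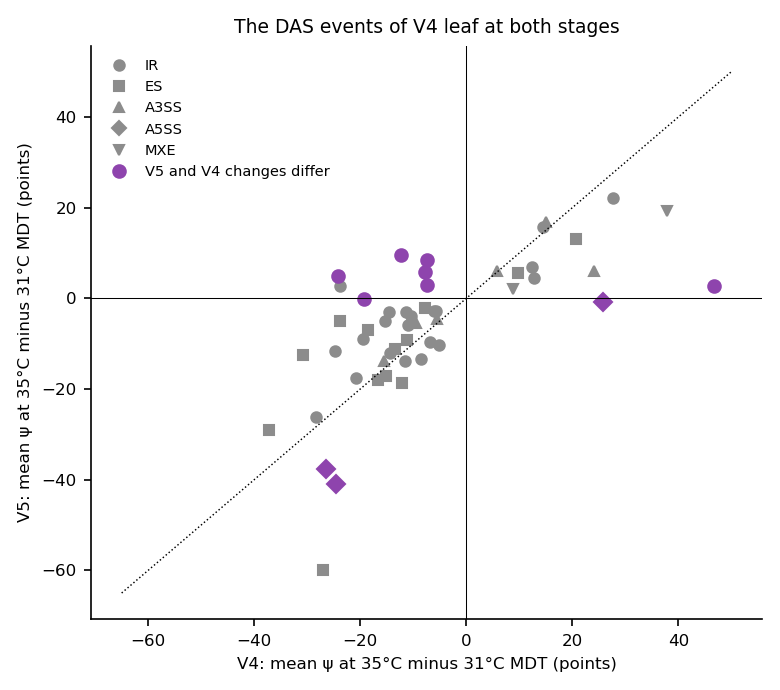
Difference of mean ψ, 35°C minus 31°C MDT in percentage points, at V5 (vertical axis) against V4 (horizontal axis) for the 52 V4 DAS events tested at both stages. Events whose change differed between the stages are marked, and other tested events are not drawn. Of the 52 events 45 lie in the quadrants of equal direction, and Zm00001d040979 lies among the events with opposite directions.

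The DAS introns were long. Their median length was 619 bases, 735 bases for those retained less and 325 bases for those retained more at 35°C, beside 320 bases for all 1858 tested introns. The ranges overlapped widely, from 79 to 2265 bases in DAS introns and from 37 to 8310 bases in all. DAS exons had a median of 95 bases beside 109 for all tested exons, and 6 of 13 (46.2%) were a multiple of 3 bases long beside 39.4%. The donors of the 3 DAS A5SS events lay 207 to 212 bases apart, beside a median of 33 bases over all. These are descriptions without a test, and the reads that can support a retained intron rise with its length.

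**Figure D5:**
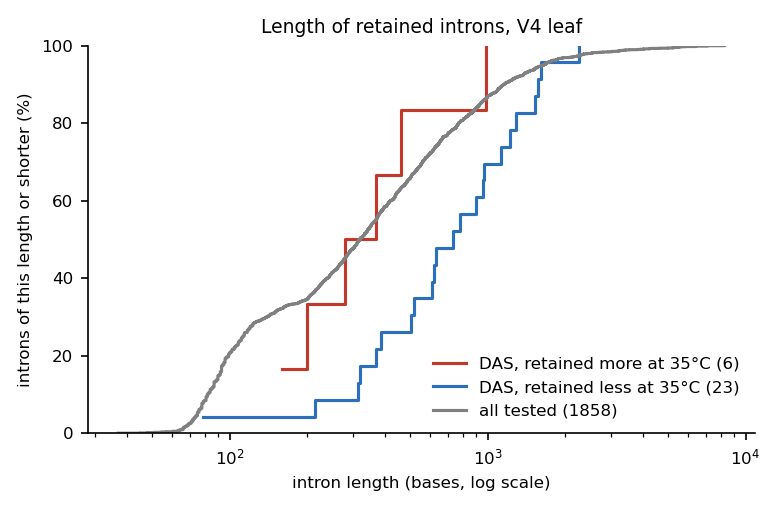
Introns of a given length or shorter (percent, vertical axis) against intron length in bases (horizontal log axis). Step curves are drawn for all 1858 tested introns and, coloured by direction, for the 29 DAS introns. The 23 DAS introns retained less at 35°C have a median of 735 bases and the 6 retained more a median of 325 bases.

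The reads of both isoforms together, divided by their effective lengths and scaled between libraries by their median, were used as a description of the local transcript level. This level comes from the same reads as ψ and leaves out other isoforms of the gene, so events of the same gene can differ in it. The 35°C minus 31°C difference of the log2 level had a median of 0.22 over the 52 DAS events with a value in all 6 libraries, beside 0.01 over 4285 tested events. It was 0.29 over the events with lower inclusion, above 0 in 29 of 39, and −0.22 over those with higher inclusion. SR45a (0.80 and 0.82 for the A5SS events and 1.46 for the ES event) and SRP (1.46) were among those with more reads at 35°C. The log2 difference was 2.12 for the intron of Zm00001d005881 and 1.85 for the A3SS event of Zm00001d016070, whose levels were higher at 35°C in every library. It was −1.70 for the intron of Zm00001d040340 and −1.21 for that of Zm00001d021135. The part of transcript level in the ψ differences was not tested.

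Some events were seen in 1 group alone and could not be tested. A value in all 3 libraries at 35°C and in none at 31°C was found for 166 events in 137 genes, and the reverse for 102 events in 83 genes. Both counts are out of 18359 events with a value in any of the 6 libraries. The 35°C libraries held more reads, and the part of depth in these counts was not tested. The rarer isoform had a median of 2 reads in both sets, and in 6 and 8 of the events the same stretch had a value in the other group under another listing. At this depth the absence of a value cannot be read as absence of the isoform. In Zm00001d039258 the deepest of them, an exon at chr3:700110-700187, had 2, 3 and 2 skipping reads beside 37711, 37627 and 37729 inclusion reads at 35°C. A few had many reads of both isoforms, such as an MXE event of Zm00001d040953 with 116 and 222, 114 and 180, and 104 and 191 reads of its exons at 35°C. This event also had no value at 33°C or in 37°C replicate 2, beside 98 and 216 reads in 37°C replicate 1 and 162 and 342 in replicate 3. Values were thus missing between replicates of the same MDT as well. At 31°C, an A5SS event of Zm00001d021135 had 781 and 11, 710 and 12, and 691 and 14 reads of the longer and the shorter exon. No value was listed for it at 33°C, 35°C or 37°C.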

How the data were processed

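Poly(A) RNA was sequenced by the authors, who aligned the W22 reads to the B73 genome and detected AS events with rMATS. HISAT2 2.0.4 and Bowtie2 2.2.5 are named in the submitters' processing notes. The read counts of both isoforms per event and library were deposited by the authors without normalization, and the inclusion level ψ is a fraction that the authors computed with rMATS before deposit. The deposited ψ was recovered within 0.001 from the counts for every value checked when the skipping isoform was given an effective length of 149 bases, which fits reads of 150 bases, whereas the methods state 50. Differences between W22 and B73 can affect which reads align. Columns were assigned to samples by name, and 5 columns of single samples were not used. Inclusion reads of 31°C replicates 2 and 3 were therefore computed from ψ and the skipping reads, within 5% over the rounding of ψ in 91.3% and 90.9% of the events, and ψ at 33°C was computed from the reads.

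A quasi-binomial model of each event over the 6 libraries was fitted with R 4.3.3, with the dispersion moderated by limma 3.58.1 and not below 1, and with Benjamini-Hochberg adjustment within each AS type. Stages were compared with a Wald test on logit shares with 0.5 added to each count. Alternatives used edgeR 4.0.16 and limma on log ratios. The model was tested on simulated data. Python 3.11.15, pandas 2.3.3 and numpy 2.4.6 were used for the tables, and figures drawn with matplotlib 3.10.9. The study describes its RNA-seq replicates as biological and used duplicate chambers for each MDT. No chamber is named for a library, so that chamber and MDT cannot be told apart. The p-values measure counting error and the variation among these libraries alone. PCR copies were not marked by identifiers, so a read is not a molecule.

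The comparison, the gene lists and the tests were chosen with earlier results of these data known. Named events were the DAS events with at least 20 reads in each group, no overlap and the largest differences (10 IR, 8 ES and 4 of each other type), all tested events of the genes the study names, genes with DAS events of 2 or more types or 3 or more events, the 4 deepest events in each direction seen in 1 group alone, and the 3 deepest IR and ES events. Other events, among them the smallest FDR of IR, the rest of the introns retained more at 35°C, the 72-base exon of Zm00001d022272 and extremes of transcript level, were named after their values were seen. Not every event selected in this way is described above. Gene lists by product keyword could not be formed, and no genome was used, so no sequence is given.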

Additional observations from a re-analysis of the deposited data

Results flagged for a closer look

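The difference between 35°C and 31°C MDT was tested for a change between the stages with a Wald test of the interaction, and 40 of 5624 events passed. They include 10 of the V4 DAS events, for which the V5 difference minus the V4 difference is given here. It was −43.87 points for the intron of Zm00001d008933 (FDR = 0.0057), whose retention at V5 was 50.5% ± 15.0 (SD, n = 3) at 35°C and 47.7% ± 4.90 at 31°C. It was −26.7 points for the A5SS event of Zm00001d020717, −16.33 points for the 207-base and −11.2 points for the 210-base A5SS event of SR45a (Zm00001d047847). The remaining 6 events were introns that were retained less at 35°C at V4. Their values were 10.3 points for Zm00001d016679, 13.67 points for Zm00001d012212, 15.67 points for Zm00001d005881, 18.97 points for Zm00001d041491, 21.93 points for Zm00001d040979 and 29.07 points for Zm00001d011168. At V5 the differences of Zm00001d012212 (10.8% ± 0.872 at 35°C and 5.0% ± 1.47 at 31°C), Zm00001d005881 (24.1% ± 2.55 at 35°C and 15.8% ± 1.21 at 31°C) and Zm00001d040979 lay in the other direction. So did those of Zm00001d011168 (51.7% ± 4.23 at 35°C and 46.8% ± 5.78 at 31°C) and Zm00001d016679 (27.1% ± 3.54 at 35°C and 24.2% ± 2.08 at 31°C), with groups that overlapped. That of Zm00001d041491 was close to 0, with 13.2% ± 1.23 at 35°C and 13.5% ± 4.65 at 31°C.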

How the results depend on the processing

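The 53 DAS events numbered 52 with edgeR, 48 with a minimum of 20 reads, 44 with no minimum and 44 with adjustment over all types, 39 at a difference above 10 points, 61 with 1 spread for all V4 groups, and 49 with events that share skipping reads counted once. Leaving out events whose recovered reads were uncertain, a setting chosen after seeing the data, gave 63. No direction was reversed, but it could change only where a library was left out, because the other settings used the same mean ψ. Limma on log2 ratios, and on logit ψ, called 0 events in all, by type and by direction, with 809 and 808 at an unadjusted p under 0.05. With a pseudocount of 2, limma called 1 event, a lower ES event, and 0 IR, A3SS, A5SS, MXE and higher events. An FDR of at most 0.05 gave 109 events (48 IR, 21 ES, 15 A3SS, 22 A5SS), 39 higher and 70 lower, with 15 IR and 5 ES events higher, 81 stage differences and 33 events at 37°C/35°C. Values in all 3 libraries gave 84 events (12 A3SS, 12 A5SS), 25 higher and 59 lower, with 10 IR and 4 ES events higher. Adjustment over all types gave 19 IR, 5 A5SS and 1 MXE event, and a difference above 10 points 3 A3SS, 1 MXE and 1 higher ES event. A5SS events numbered 6 with edgeR, 10 with 1 spread for all groups and 6 without uncertain reads. MXE events numbered 0 with 20 reads, with no minimum and with 1 spread. Without single libraries there were 24 to 48 DAS events (9 to 23 IR, 8 to 13 ES, 1 to 7 A3SS, 3 to 8 A5SS, 0 to 3 MXE), 8 to 14 higher and 16 to 34 lower, 3 to 5 IR events and 2 ES events higher. The same settings gave 27 to 40 stage differences, 3 to 18 events at 37°C/35°C, 577.2 to 805.7 more AS events per library at 35°C, and differences of −1.029 to −0.7286 points for IR and −1.419 to −1.14 points for ES. The deviations of same-numbered replicates had correlations of −0.0223, 0.0509 and 0.00532 over 2630 events at V4 35°C/31°C. They were −0.0334, 0.0233 and −0.0262 at 37°C/35°C, and 0.0212, 0.00161 and 0.0363 at V5 35°C/31°C. These values show no common deviation, but counting error draws such correlations toward 0. They therefore cannot decide whether the replicate numbers pair the samples. With the replicate number as a block there were 70 DAS events, 51 of them among the 53, with 10 A5SS events, 36 stage differences and 39 events at 37°C/35°C. Summed over the 53 DAS events and all settings, 681 values still passed the thresholds and 318 did not. In most of these settings the direction was fixed in advance, as stated above.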
